A study of Mus musculus with 6 samples.

Results

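The dendritic cell lineage transcription factors examined here are 10 genes (Batf3, Id2, Nfil3, Zbtb46, Bcl6, Cbfa2t3, Spi1, Zeb2, Tcf4 and Ikzf1), out of 32903 gene symbols that the deposited table yields. They were listed by name as regulators of the type 1 conventional dendritic cell (cDC1) and of the dendritic lineage, with the interferon regulatory factors left out, and all 10 were found in the table. The study measured polyadenylated RNA of MuTuDC1940, a mouse dendritic cell line with cDC1 features. It has 3 untreated samples and 3 samples exposed for 18 hours to 5 µg/ml poly(I:C), a mimic of double-stranded RNA. MuTuDC lines come from spleen dendritic cell tumours of mice that carry a large T antigen transgene in CD11c-expressing cells, so all samples are 1 immortalised line and share that transgene. Because the table's header names 5 of its 6 value columns and leaves a gap, only the 4 columns whose group is the same under either reading were used: NT01 and NT02 (untreated), PolyIC01 and PolyIC02 (treated). Values are TPM, transcript abundance scaled for transcript length and to a fixed total per library, summed over the transcripts of each gene. Nothing in the labels describes the samples of a group as separate cultures. The p-values therefore reflect the spread between these libraries alone, and that spread may be technical.

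The lineage of a dendritic cell is set by a small circuit of transcription factors. PU.1, encoded by Spi1, opens myeloid regulatory regions and pairs with IRF8, whose gene is kept active in cDC1 with the help of BATF3. ID2 has no DNA-binding region of its own and holds E proteins such as TCF4 inactive, which favours conventional over plasmacytoid dendritic cells. NFIL3 acts upstream by restraining Zeb2, and ZEB2 in turn opposes the cDC1 fate. ZBTB46 marks conventional dendritic cells, BCL6 and ETO2 (the product of Cbfa2t3) act through corepressor complexes, and Ikaros (Ikzf1) is required early in the lineage.

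The 4 libraries held between 11207 and 11584 genes at 1 TPM or more, and their sequencing depth is unknown because TPM keeps no record of it. Of 16 cDC1 markers, all but the integrin gene Itgae (0.490 to 0.918 TPM) exceeded 1 TPM in every library, among them Naaa (1124 to 1230 TPM), Wdfy4 (302 to 318 TPM), Xcr1 and Clec9a. Their summed level was 3463 and 3429 TPM untreated, against 3073 and 3093 TPM treated. This sum joins opposite moves: by the test described below 6 of the 16 rose, 7 fell and 3 did not pass. Of all tested genes 28.4% rose and 32.4% fell. By group means Cd24a went from 382 to 142 TPM and Itgax from 358 to 218 TPM, while Xcr1 went from 192 to 331 TPM. Markers of other cells were mixed. The 8 cDC2 markers summed to 19.1 and 18.1 TPM untreated and 44.3 and 43.7 TPM treated; most of this was Itgam (11.4 TPM untreated, 5.99 treated, group means) and Cd4 (6.27 and 35.5 TPM), Sirpa went from 0.183 to 1.96 TPM, and Cd209a and Clec4a4 were listed at 0 in all 4 libraries. The 7 plasmacytoid markers in the table summed to 17.5 and 17.3 TPM untreated and to 17.0 and 16.8 TPM treated. Nearly all of the untreated sum was Cox6a2, which went from 16.05 to 12.0 TPM by group means. Pacsin1 went the other way, from 0.360 to 3.96 TPM, and the defining Siglech was at 0.494 TPM or less. Of lymphocyte markers, Cd3d was at 0.842 and 1.53 TPM and Ms4a1 at 3.38 and 6.25 TPM, while Cd3e and Cd3g of T cells and Ncr1 of NK cells were listed at 0 in all 4 libraries. The part of these markers in the results below was not tested. The 10 macrophage and monocyte markers summed to 288 and 285 TPM untreated and to 502 and 517 TPM treated, although the defining Csf1r was at 0.272 and 0.469 TPM untreated and listed at 0 in both treated libraries. Most of the untreated sum was Lyz2, which went down from 218 to 103 TPM by group means. The higher treated sum came mainly from C1qa (37.0 to 171 TPM), C1qb (12.3 to 125 TPM) and Ms4a7 (9.73 to 92.2 TPM). In such bulk samples a change in the number of cells of a type and a change in RNA per cell cannot be told apart.

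Most of the circuit was expressed and moved by small amounts. Spi1, Cbfa2t3, Zbtb46, Nfil3 and Ikzf1 rose by 15.5% to 38.0% in mean TPM, Batf3 fell by 19.0%, Id2, Bcl6 and Tcf4 did not pass the test, and Zeb2 was too low to test. A gene was tested where its mean over the 4 libraries was at least 0.5 TPM, and each of the 9 tested factors exceeded this in every library. Rose and fell here mean an adjusted p under 0.05 (Benjamini-Hochberg over all 12520 genes tested) in limma on log2(TPM + 1). Thus 6 of 9 lineage factors passed, where 60.8% of all tested genes did. With no limit on low values 22324 genes were tested and 33.4% passed, against 6 of the 10 factors. By direction 5 of 9 rose against 28.4% of all genes, and 1 of 9 fell against 32.4%. None of the 9 moved as much as 2-fold on this scale, where 8.44% of all genes passed and did so. The median log2 change of the 9 was 0.20, beside -0.015 over all tested genes, and the median size of the change, whatever its sign, was 0.30 beside 0.27.

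**Figure D1:**
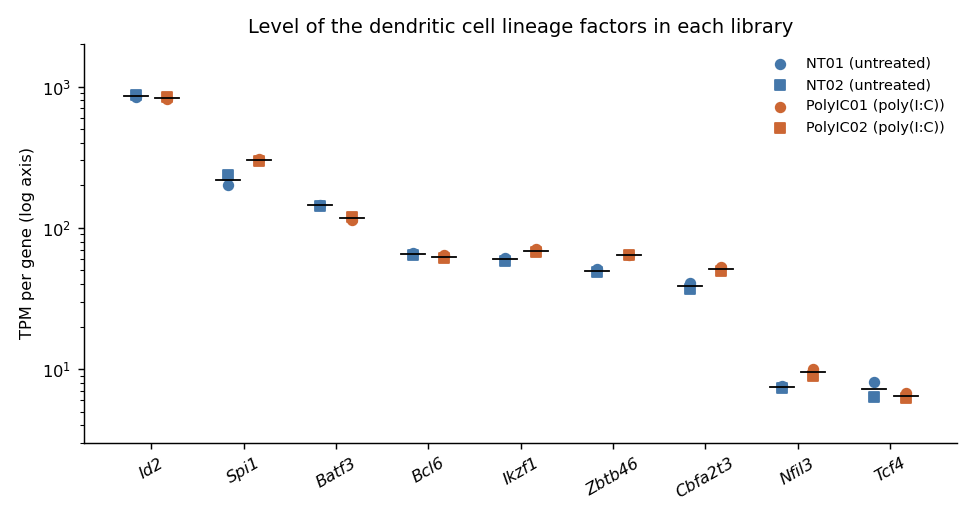
TPM of each of 9 lineage factors in the 4 libraries, on a log axis; circles and squares are the libraries headed 01 and 02, blue for untreated and orange for poly(I:C), and short lines are the means of 2 libraries. Id2 lies highest (816 to 864 TPM) and Tcf4 and Nfil3 lowest (6.22 to 10.01 TPM); Zeb2 is not drawn because it was listed at 0 in 3 libraries.

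In untreated cells the factors fell into an order of level per length, counted over the transcripts matched. For some factors not every listed transcript was matched, as given below. Id2 came first (856.7 ± 10.2 TPM, SD, n = 2), 156th of all 12520 tested genes. Spi1 (219 ± 24.3 TPM) and Batf3 (144 ± 1.74 TPM) followed. Next came 4 genes of similar level, Bcl6 (65.6 ± 1.64 TPM), Ikzf1 (59.8 ± 1.57 TPM), Zbtb46 (49.8 ± 1.95 TPM) and Cbfa2t3 (38.7 ± 2.47 TPM). Neighbours in this order did not overlap between libraries down to Cbfa2t3. Nfil3 (7.46 ± 0.166 TPM) and Tcf4 (7.23 ± 1.18 TPM) were lower and overlapped each other, and Zeb2 was listed at 0. With poly(I:C) Id2, Spi1 and Batf3 kept the first places, while Bcl6 moved from position 4 to position 6, behind Ikzf1 and Zbtb46. It overlapped Zbtb46 there, and Nfil3 and Tcf4 no longer overlapped.

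Batf3 was the only one of the 9 factors that fell. It encodes a small basic leucine zipper protein that binds DNA with a JUN partner and IRF8. The gene spans positions 191098414 to 191108943 of chromosome 1 (RefSeq coordinates on GRCm38.p6, as for the other genes). NT01 and NT02 read 145 and 143 TPM, PolyIC01 and PolyIC02 114 and 120 TPM. Both treated values lay well under both untreated ones. The log2 fold change was -0.30 (SE 0.034), with an adjusted p of 0.000772 by limma, and 2785 of the genes that fell did so by more. Its partner gene Irf8 was far more abundant, with 2482 and 2477 TPM untreated against 2558 and 2639 TPM treated. Irf8 thus stood at 17.1 and 17.3 times the TPM of Batf3 in the untreated libraries, and at 22.5 and 22.1 times in the treated ones, a ratio formed after the values had been seen and not tested. The rise of Irf8 itself was slight (log2 fold change 0.068, limma adjusted p = 0.0497) and did not pass in 7 of 12 alternative settings, with adjusted p from 0.00156 to 0.323.

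Id2, the most abundant factor, read 849 and 864 TPM untreated against 816 and 841 TPM treated. The gene spans positions 25093799 to 25096092 of chromosome 12. The treated values were both lower, by a margin smaller than the gap between the 2 treated libraries. The log2 fold change of -0.049 had a 95% interval from -0.11 to 0.016 and did not pass (limma adjusted p = 0.154). It moved to -0.027 without PolyIC01 and to -0.0087 with quantile normalization, and it passed with the libraries blocked by the number in their headings (limma adjusted p = 0.0452; range over 12 alternatives 0.0452 to 0.765). Tcf4, an E protein gene and the leading regulator of plasmacytoid dendritic cells, was low, with 8.06 and 6.40 TPM untreated against 6.75 and 6.22 TPM treated. It spans positions 69343429 to 69687967 of chromosome 18. Its groups overlapped, the only such case among the 9 factors: 8 of 9 did not overlap, where 81.3% of all tested genes did not. The log2 fold change of Tcf4 was -0.13 (95% interval -0.42 to 0.16, limma adjusted p = 0.367), and 1 library decides its value. Without NT01 it was 0.016, and without NT02 it was -0.28 and passed (limma adjusted p = 0.0481, the range over 11 alternatives being 0.0481 to 0.900).

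Relatives of these genes also act on the ID and E protein balance. Tcf3, the most abundant E protein gene here, fell from 54.2 and 50.4 TPM to 41.5 and 42.4 TPM (log2 fold change -0.31, SE 0.048, limma adjusted p = 0.0027). Tcf12 read 30.3 and 28.8 TPM, then 27.8 and 25.9 TPM, and did not pass (limma adjusted p = 0.0856), although it did with median scaling (0.0407) and with the libraries blocked by the number in their headings (0.0314; range over 12 alternatives 0.0314 to 0.957). Of the other ID genes, Id3 rose from 82.3 ± 5.07 to 96.5 ± 1.69 TPM (log2 fold change 0.23), as did Id1 from 2.04 ± 0.0844 to 3.39 ± 0.207 TPM (0.53). Id4 was listed at 0 in all 4 libraries. Of 5 relatives 4 were tested, 2 rose and 1 fell, and their median log2 change was 0.046. Of all tested genes 28.4% rose and 32.4% fell.

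Summed over Tcf3, Tcf4 and Tcf12, E protein transcripts came to 92.6 and 85.6 TPM untreated against 76.0 and 74.5 TPM treated. The sum of Id1, Id2 and Id3 was 930.2 and 952 TPM untreated against 915 and 942 TPM treated, and Id2 made up 89.2% to 91.3% of it. The ratio of ID to E protein transcripts was therefore 10.05 and 11.1 untreated and 12.03 and 12.6 treated. The groups did not overlap in this ratio, which is given as a description.

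**Figure D2:**
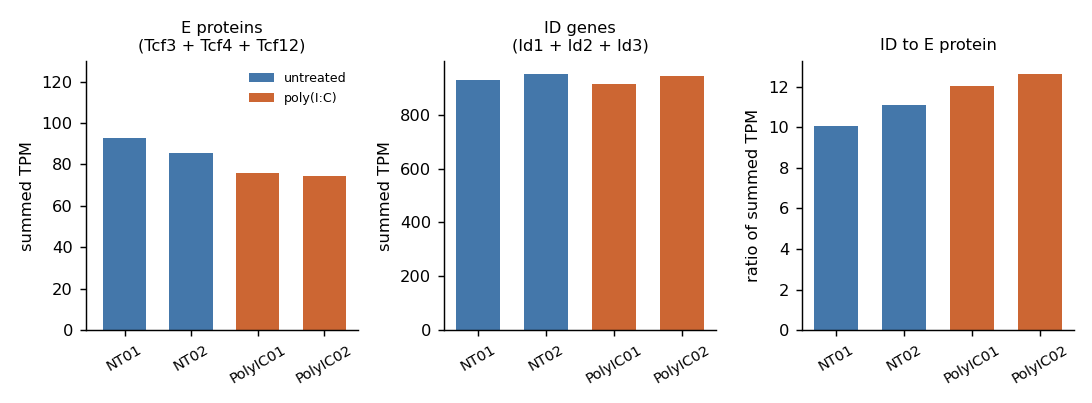
Summed TPM of the E protein genes (left), of the ID genes (middle) and their ratio (right) in each library, blue for untreated and orange for poly(I:C). E protein sums are 92.6 and 85.6 against 76.0 and 74.5 TPM, the ID sums lie between 915 and 952 TPM in all 4 libraries, and the ratio goes from 10.05 and 11.1 to 12.03 and 12.6.

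Nfil3 and Zeb2 have opposite effects on the commitment of a progenitor to cDC1. Nfil3, a basic leucine zipper repressor gene at positions 52967209 to 52982878 of chromosome 13, read 7.58 and 7.35 TPM untreated against 10.01 and 8.94 TPM treated. Both treated values were higher, and PolyIC01 was the higher of them. The log2 rise was 0.31 (SE 0.078, limma adjusted p = 0.0182). The call was lost without PolyIC01 (log2 fold change 0.23) and with curated transcripts alone (0.12), the adjusted p ranging from 0.00877 to 0.637 over 12 alternatives. Zeb2, a zinc finger repressor gene at positions 44983512 to 45117442 of chromosome 2, was listed at 0 in NT01, NT02 and PolyIC02 and at 0.00963 TPM in PolyIC01. This rests on the 2 transcripts matched, of 7 that the RefSeq table lists for the gene. The 20662 transcripts of the deposited table that match no symbol could hold others. The related gene Zeb1 was low too, at 2.68 ± 0.417 TPM untreated and 2.33 ± 0.351 TPM treated, and did not pass (limma adjusted p = 0.371).

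Spi1 and Ikzf1, which act broadly in blood cells, both rose. Spi1, at positions 91082374 to 91115759 of chromosome 2, had the largest change of the 9 factors, from 202 and 236 TPM in NT01 and NT02 to 306 and 298 TPM in PolyIC01 and PolyIC02. The treated libraries were close together and above both untreated ones, which differed from each other by more. Its log2 fold change was 0.47 (SE 0.078), with an adjusted p of 0.00599 by limma, and 1863 genes rose by more. Without PolyIC01 or PolyIC02, when the spread comes from the untreated pair alone, the call was lost (log2 fold change 0.45 and 0.48, limma adjusted p = 0.0755 and 0.0607), the adjusted p over 12 alternatives ranging from 1.51e-05 to 0.0755. Of the macrophage and monocyte markers, whose sums are given above, 6 exceeded the limit of 0.5 TPM in both groups. Of these 4 rose and 1 fell, where 28.4% of all tested genes rose and 32.4% fell. The part of these markers in the change of Spi1 was not tested.

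Ikzf1, a zinc finger gene at positions 11684962 to 11772930 of chromosome 11, went from 60.9 and 58.7 TPM to 70.6 and 67.4 TPM. The groups did not overlap, but this was the smallest rise of the 5 (log2 fold change 0.20, SE 0.040, limma adjusted p = 0.00702). It was lost with curated transcripts alone, which hold 22.1% to 24.5% of the gene's TPM (0.22, limma adjusted p = 0.0909; range over 12 alternatives 0.0036 to 0.0909). Of its relatives, Ikzf3 rose from 2.95 ± 0.299 to 5.42 ± 0.0631 TPM (log2 fold change 0.70). Ikzf5 did not pass, and Ikzf2 and Ikzf4 were too low to test. Ikzf1 held 79.2% to 80.05% of the summed TPM of the 5 Ikaros family genes in every library.

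Zbtb46, Cbfa2t3 and Bcl6 encode repressors or corepressors. Zbtb46, at positions 181371009 to 181493262 of chromosome 2, read 51.1 and 48.4 TPM untreated against 63.8 and 63.9 TPM treated. The treated libraries were nearly identical and lay above both untreated ones. Zbtb46 rose by 0.35 on the log2 scale (SE 0.041, limma adjusted p = 0.000793). With curated transcripts alone, which hold 27.5% to 34.8% of its TPM, the call was lost (log2 fold change 0.23, limma adjusted p = 0.0995; range over 12 alternatives 0.000292 to 0.0995).

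Cbfa2t3, at positions 122625136 to 122699332 of chromosome 8, went from 40.5 and 37.0 TPM to 52.7 and 49.1 TPM. Both treated values exceeded both untreated ones, and the log2 fold change was 0.39 (SE 0.061, limma adjusted p = 0.00282). Of the 6 factors that passed, Cbfa2t3 and Batf3 were the ones that kept their call in all 12 alternatives. Batf3 rests on 1 transcript, a curated one, so using curated transcripts alone could not change its log2 fold change. Bcl6, at positions 23965050 to 23988866 of chromosome 16, read 66.8 and 64.5 TPM untreated against 64.3 and 60.8 TPM treated. The higher treated value lay just under the lower untreated one. The log2 fold change of -0.068 (95% interval -0.17 to 0.037) did not pass, with a limma adjusted p of 0.212. Single libraries moved it by over 1.5 times, to -0.043 without NT01, -0.11 without PolyIC01 and -0.029 without PolyIC02, and it passed in none of the 12 alternatives.

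**Figure D3:**
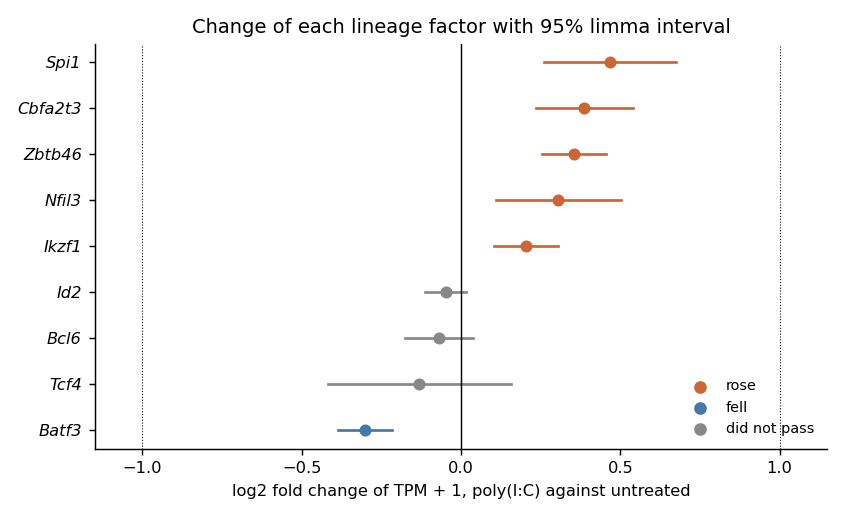
log2 fold change of TPM + 1 between treated and untreated libraries for the 9 tested factors, with bars for the 95% interval from limma; orange rose, blue fell, grey did not pass, and dotted lines mark a 2-fold change. Every interval lies inside the 2-fold lines; Spi1 is highest at 0.47 and Batf3 lowest at -0.30.

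The transcripts within each factor gave values that the sums per gene do not show; they were looked at after the gene values and not tested. In Spi1 the curated transcript held 92.3% to 94.98% of the TPM. The single predicted transcript stood at 12.1 and 11.9 TPM untreated against 23.4 and 21.9 TPM treated, 1.89-fold by the ratio of means, beside 1.35-fold for the curated one. In Cbfa2t3 the leading curated transcript held 69.4% to 77.8% of the TPM, and a second curated one went from 2.79 and 4.42 TPM to 8.50 and 5.43 TPM. Zbtb46 was led by a predicted transcript, at 27.0 and 23.8 TPM untreated against 34.2 and 33.4 TPM treated. Its leading curated one moved less, from 14.6 and 15.1 TPM to 16.8 and 17.6 TPM.

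Nfil3 divided between a curated transcript, whose groups overlapped (3.62 and 2.64 TPM, then 4.09 and 2.90 TPM), and a predicted one, whose groups did not (3.54 and 4.41 TPM, then 5.45 and 5.34 TPM). Ikzf1 spread over 28 transcripts, of which 3 reached 10% of the gene in any library. In Tcf4 a curated transcript held 8.61% and 14.8% of the gene in NT01 and NT02 and was close to 0 in both treated libraries. One predicted Tcf4 transcript went the other way, from close to 0 to 0.514 and 0.717 TPM. The leading Tcf4 transcripts are predicted ones, and 1 of them held 49.0% of the gene in PolyIC01 and 27.6% in PolyIC02, so shares at this level differ widely between libraries of 1 group.

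**Figure D4:**
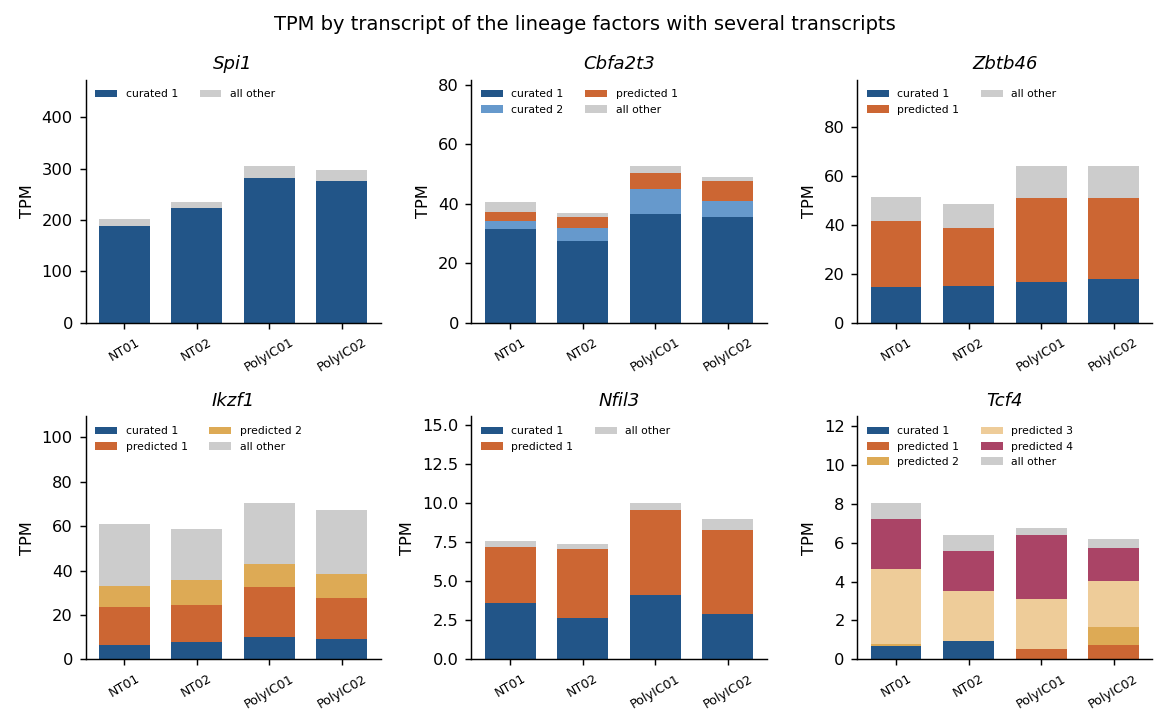
TPM by transcript in each library for 6 lineage factors with several transcripts. Zeb2, too low to test, also has several but is not drawn. Blue shades are curated and other colours predicted transcripts that hold at least 10% of the gene in any library. Grey is all other transcripts. Spi1 is nearly all 1 curated transcript, while Ikzf1 and Tcf4 are spread over many.

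Promoter windows are shown for the factor that fell and for the 2 largest rises with an entry in the RefSeq promoter table (GRCm38.p6), the choice of Zbtb46 being made after its values were seen. The table holds 14 windows of 300 bases for 8 of the 10 genes, the others being Spi1 and Tcf4. Each window runs from 250 bases before a listed transcription start to 50 after it. Capitals mark matches to any of 7 motifs searched on both strands. These were the interferon-stimulated response element core GAAANNGAA, the STAT motif TTCNNNGAA, the ETS-IRF motif GGAANNGAA, the AP-1 motif TGANTCA, the E-box CACCTG, the NFIL3 motif TTANNTAA and the NF-kB motif GGGNNTTCC. The first 3 of these can overlap at the same bases. The sequences lie at chr1:191098164-191098463 (plus strand), chr8:122678126-122678425 (minus strand) and chr2:181424339-181424638 (minus strand) and read 5′ to 3′ along the gene.
Batf3: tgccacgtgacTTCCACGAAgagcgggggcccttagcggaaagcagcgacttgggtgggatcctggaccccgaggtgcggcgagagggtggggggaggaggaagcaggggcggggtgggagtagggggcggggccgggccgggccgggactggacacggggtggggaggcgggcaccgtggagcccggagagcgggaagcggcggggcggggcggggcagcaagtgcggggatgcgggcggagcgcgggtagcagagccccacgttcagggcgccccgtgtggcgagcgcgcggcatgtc
Cbfa2t3: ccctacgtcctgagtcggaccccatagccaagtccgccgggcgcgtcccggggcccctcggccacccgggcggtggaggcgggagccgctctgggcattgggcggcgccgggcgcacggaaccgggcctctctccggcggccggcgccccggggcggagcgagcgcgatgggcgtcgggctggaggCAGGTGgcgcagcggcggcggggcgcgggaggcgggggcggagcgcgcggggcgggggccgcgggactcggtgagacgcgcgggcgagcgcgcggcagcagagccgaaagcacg
Zbtb46: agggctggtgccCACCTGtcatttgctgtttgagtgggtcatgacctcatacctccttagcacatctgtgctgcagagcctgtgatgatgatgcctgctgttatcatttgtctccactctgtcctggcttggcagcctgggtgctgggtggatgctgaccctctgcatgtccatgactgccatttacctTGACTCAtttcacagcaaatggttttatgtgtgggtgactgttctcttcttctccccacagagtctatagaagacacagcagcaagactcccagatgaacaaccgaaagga

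The Batf3 window held 1 match, the STAT motif as TTCCACGAA at position -239 from the start site. The Cbfa2t3 window shown, of 2 for that gene, held 1 E-box on the opposite strand at position -64, and the other window held no match. The Zbtb46 window held an E-box at position -238 and an AP-1 motif (TGACTCA) at position -61. Read along the minus strand, Zbtb46 begins at position 181493262 and Cbfa2t3 at 122699332, so the windows shown for both lie inside their genes. Whether either listed start is used in these cells was not tested. No window of the 8 genes held the interferon-stimulated response element core or the NFIL3 motif, which occur in 8.56% and 6.003% of all 32851 windows of this length. The STAT motif was in 6 of the 14 windows (of Batf3, Bcl6, Ikzf1 and Zeb2), where 8.30% of all windows hold it, and 2 of the Zeb2 windows overlap and share their match. The E-box was in 2 of 14 (20.2% of all windows), AP-1 in 2 (7.81%), NF-kB in 2, which are the overlapping Zeb2 windows with the same match (5.82%), and ETS-IRF in 1, of Bcl6 (8.24%). These are matches of letters only.

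Other regulators of dendritic and myeloid lineages included genes with far larger changes than the 10 factors. Of 25 such genes 18 exceeded the limit of 0.5 TPM in the means of both groups, of which 12 rose, 3 fell and 3 did not pass. Their median log2 change was 0.43, and 6 passed and moved at least 2-fold. Of all tested genes 28.4% rose, 32.4% fell and 8.44% passed with a change of at least 2-fold. Among the 18, the nuclear receptor gene Nr4a3 had the largest change, from 0.531 ± 0.0367 to 5.87 ± 0.831 TPM (log2 fold change 2.16). Cebpb, which encodes a basic leucine zipper factor of monocytes and macrophages, rose from 15.5 ± 0.223 to 51.5 ± 3.06 TPM (1.67). Relb, an NF-kB subunit gene, rose from 32.7 ± 1.86 to 102.8 ± 2.42 TPM (1.62). The 3 that fell, named after their values were seen, were Klf4 (log2 fold change -1.28), Notch2 (-0.23) and Gata2 (-0.29). The call for Gata2 (limma adjusted p = 0.0389) was lost without any one of the 4 libraries, among other settings (0.00635 to 0.167 over 11 alternatives).

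Irf4, Bcl11a, Spib and Prdm1, regulators tied to other fates, were at 1.87 TPM or less in every library. Irf4, the cDC2 counterpart of Irf8, read 0.671 and 0.606 TPM untreated against 0.523 and 0.242 TPM treated. The plasmacytoid factor gene Bcl11a read 0.153 and 0.147 TPM, then 0.0615 and 0.0543 TPM, under the limit for a test. Spib, an ETS factor gene of plasmacytoid dendritic cells, read 0.0352 and 0.0383 TPM untreated against 1.87 and 1.50 TPM treated. Irf4 and Spib reached the limit through the group where each is higher, so no test is given for them. Prdm1, which BCL6 represses in lymphocytes, read 0.417 and 0.569 TPM, then 0.610 and 0.392 TPM, also under the limit. Runx1, a partner of PU.1, was at 32.5 ± 1.60 TPM untreated and 32.4 ± 0.310 TPM treated and did not pass.

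Where 60.8% of all tested genes passed, all 4 tested relatives and dimer partners of Batf3 did, 3 rising and 1 falling. Batf2 rose from 8.22 and 8.53 TPM to 23.0 and 27.0 TPM (log2 fold change 1.47, limma adjusted p = 5.73e-05). The Batf2 call was lost with curated transcripts alone (1.84, limma adjusted p = 0.0845; range over 12 alternatives 3.14e-05 to 0.0845). Batf stayed under the limit, at 0.118 and 0.0342 TPM untreated and 0.544 and 0.560 TPM treated. Batf3 thus held 94.6% and 94.3% of the summed TPM of Batf, Batf2 and Batf3 in the untreated libraries and 82.9% and 81.3% in the treated ones. Among the JUN genes, Junb rose from 157.5 ± 1.31 to 509 ± 1.88 TPM (1.69), while Jun fell from 40.5 ± 0.538 to 22.1 ± 0.407 TPM (-0.85).

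Of 17 corepressors and other partners of these factors 15 were tested, where 32.4% of all tested genes fell and 28.4% rose. Of the 15, 8 fell, 2 rose and 5 did not pass, and the median log2 change was -0.23. Ctbp1, a corepressor that ZEB proteins recruit, fell most, from 134 ± 1.83 to 90.0 ± 2.05 TPM (log2 fold change -0.57). Irf2bp2, which binds ETO2, rose from 38.9 ± 3.08 to 78.9 ± 0.929 TPM (1.00). Lyl1, a blood cell helix-loop-helix gene, rose from 0.950 ± 0.116 to 1.68 ± 0.241 TPM (0.45). The Lyl1 call was lost without PolyIC01 (0.36, limma adjusted p = 0.085) and with curated transcripts alone (0.70, limma adjusted p = 0.127), the range over 11 alternatives being 0.00796 to 0.127. Among the falls, named after their values were seen, were Bcor, a corepressor of BCL6 (21.9 ± 0.270 to 16.7 ± 0.247 TPM), and Lmo2, an adaptor of complexes that hold ETO2 (47.4 ± 1.05 to 35.8 ± 0.843 TPM). Mbd3, a subunit of the NuRD complex that Ikaros joins, fell as well (119.8 ± 2.36 to 88.5 ± 3.25 TPM). Bcor lost its call with curated transcripts alone (limma adjusted p = 0.0695; range over 12 alternatives 0.000848 to 0.0695).

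Cbfa2t2, a relative of Cbfa2t3 also named after its values were seen, read 7.29 and 6.88 TPM, then 6.02 and 5.78 TPM. It passed (log2 fold change -0.23, limma adjusted p = 0.0397) but lost the call without any one of the 4 libraries (log2 fold change -0.27 to -0.19), with no limit on low values and with curated transcripts alone, where the change was -0.070 (limma adjusted p = 0.702; range over 12 alternatives 0.0148 to 0.702). Cbfa2t3 held 84.3% to 84.7% of the summed TPM of Cbfa2t3, Cbfa2t2 and Runx1t1 in the untreated libraries and 89.5% to 89.8% in the treated ones.

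The receptors through which growth factors act on dendritic cells split by direction. Flt3, on whose ligand dendritic cell development depends, fell from 9.13 and 9.91 TPM to 5.62 and 5.00 TPM (log2 fold change -0.74, SE 0.085, limma adjusted p = 0.000809). Both chains of the GM-CSF receptor rose, Csf2rb from 31.7 and 34.0 TPM to 190.4 and 179 TPM (2.45) and Csf2ra from 76.6 and 69.1 TPM to 100.7 and 94.9 TPM (0.42). Kit and Csf1r were too low to test.

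**Figure D5:**
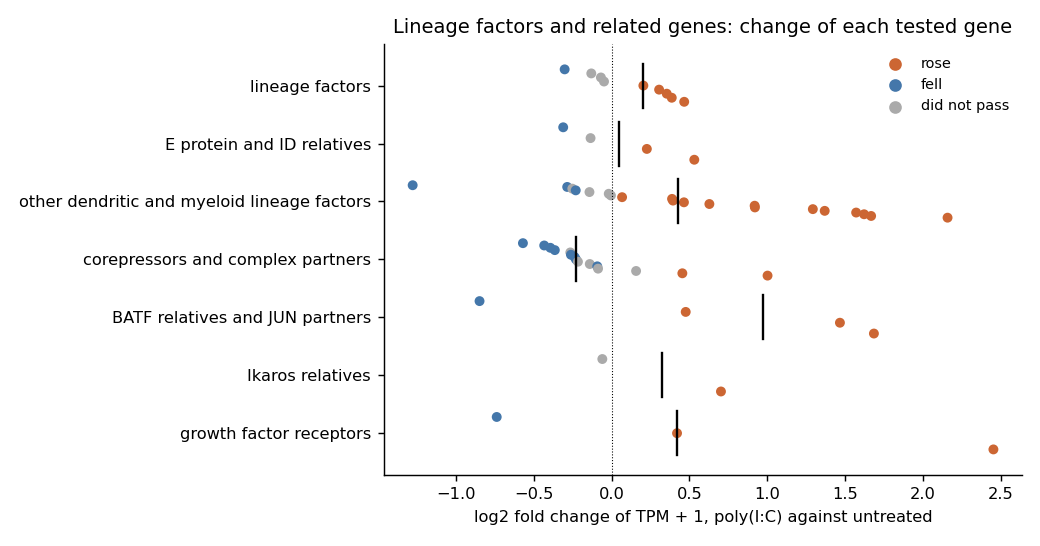
log2 fold change of TPM + 1 of each tested lineage factor and of each tested gene of 6 related lists; orange rose, blue fell, grey did not pass, and black lines are list medians; Irf4 and Spib, over the limit in 1 group only, are drawn among the other lineage factors. Their colours follow the fit and are not given as a result. The 9 lineage factors lie between -0.30 and 0.47, while single genes of the other lists reach from -1.28 (Klf4) to 2.45 (Csf2rb).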

How the data were processed

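Per the labels' protocols, the libraries were made from poly(A) RNA with a stranded kit. Tools named in the submitters' notes on processing are kallisto 0.42.4 and bcl2fastq 2.20.0.422, with GRCm38 as build. Although its name says FPKM, the deposited table has columns that each sum to 1000000, so the authors' values were read as TPM of RefSeq transcripts. Because of the gap in its header, 2 columns of per-sample values were left out.

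Of 107384 transcripts, 86722 (80.8%) could be assigned to a symbol through RefSeq accessions (GRCm38.p6, versions ignored), with 91.8% to 92.2% of each library's TPM, and were summed by gene. Some factors had fewer transcripts matched than RefSeq lists, so their levels may be incomplete. Besides Zeb2 these were Bcl6 (1 of 4), Spi1 (2 of 4), Cbfa2t3 (9 of 14), Tcf4 (22 of 50) and Ikzf1 (28 of 33). Genes averaging 0.5 TPM or more were fitted with limma 3.58.1 (R 4.3.3, trend and robust moderation) on log2(TPM + 1). This scale understates changes of low genes. The script was tested on simulated data, where recovery was required only for changes of at least 2-fold. The tested lineage factors all moved by less. Adjustment was over all 12520 genes. With 2 libraries against 2, an exact permutation test cannot go below p = 0.333 (two-sided). Whether quantification used strand is unknown here, so antisense reads may be shared. Figures used matplotlib 3.10.9.

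The members and gene lists were chosen with earlier results of these data known. The text names all 10 members, up to 3 passing genes per related list with the largest change, 14 regulators set by name, and genes marked as named after their values were seen. Alternatives were a pseudocount of 0.1, no limit on low values or one of 2 TPM, median scaling, quantile normalization, limma without trend or robust moderation, curated transcripts alone, a replicate block, and leaving out each library.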

Additional observations from a re-analysis of the deposited data

How the results depend on the processing

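Of 107 values of the 9 tested factors over 12 alternatives, 98 kept their direction and their side of the threshold, among them all 12 each of Batf3, Bcl6 and Cbfa2t3. Batf3, Id2 and Bcl6 each rest on 1 curated transcript, so curated transcripts alone could not change their log2 fold change. The number of lineage factors that rose was 5 of 9 tested, where 28.4% of all tested genes rose. It went down to 2 of 8 tested with curated transcripts alone, where 23.0% of all tested genes rose. With curated transcripts alone Nfil3 (log2 fold change 0.12), Zbtb46 (0.23) and Ikzf1 (0.22) no longer passed, and Tcf4 dropped under the expression limit. The number that fell was 1 of 9 tested, where 32.4% of all tested genes fell. With curated transcripts alone it was 1 of 8, where 30.8% of all tested genes fell. Over the libraries left out, the log2 fold change ranged from 0.23 to 0.38 for Nfil3, which lost its call without PolyIC01, and from 0.35 to 0.58 for Spi1, which lost it without PolyIC01 and without PolyIC02. That of Id2 ranged from -0.070 to -0.027 and that of Bcl6 from -0.11 to -0.029. That of Tcf4 ranged from -0.28 to 0.016, turning positive without NT01 and passing without NT02. When an arm keeps 1 library, that library is assumed to vary like the other group. Apart from fewer transcripts or libraries entering, the cause was not tested.

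A replicate block by the number in the column heading gave 2 of 9 factors that fell, where 34.2% of all tested genes fell. These were Batf3 and Id2 (log2 fold change -0.049, limma adjusted p = 0.0452). The block kept the 5 rises, where 30.2% of all tested genes rose. No label says that a number is shared between groups, and the gap in the header leaves the numbers unsettled. The differences between the libraries headed 01 and 02 had a correlation of 0.0218 between the groups, across genes. The counts of all genes that rose or that fell stayed within 1.5 times of those reported under every alternative run, but with no limit on low values 22324 genes were tested, so that 33.4% passed. The counts of genes at 2-fold or without overlap were not recomputed.

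For 29 other genes named, the same alternatives, added after seeing the data, gave 343 values, of which 314 kept direction and side of the threshold and 3 turned direction. Those 3 were Runx1 without NT01 (0.045) and without PolyIC02 (0.0054), and Tcf12 with curated transcripts alone (0.029), and neither gene had passed. Over the libraries left out, Runx1 ranged from -0.053 to 0.045. The 343 values include 11 of Irf4 and 10 of Spib, of which 10 each are counted as kept. Both genes were over the limit in 1 group only, so their values are no support for a change. The unknown depth limits how far low genes such as Tcf4 and Nfil3 can be read.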
